A study of Drosophila melanogaster with 10 samples.

Results

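Larvae with the PitaΔCP1 mutation added to dCTCFΔCP and Su(Hw)Δ114 were compared with larvae that carry the latter mutations without it. Most tested immune peptide and gut protease genes were called higher and most glycolysis and fatty acid synthesis genes lower. Counts were smaller when a CTCF Su(Hw) library was left out, and among these groups only immune peptide genes then had a majority called. The comparison uses 4 of the 10 libraries of the series, chosen by their titles: 2 of larvae with all of these mutations (the triple mutant) and 2 of larvae with dCTCFΔCP and Su(Hw)Δ114 but intact Pita (named the CTCF Su(Hw) mutant). Both groups are whole Drosophila melanogaster larvae of the third instar in the strain background y1w1118, kept at 25 °C. So both carry dCTCFΔCP and Su(Hw)Δ114 in a strain labelled with yellow and white mutations, and PitaΔCP1 is the labelled difference (spelled dCTCFdeltaCP, SuHwdelta114 and PitadeltaCP1 by the submitters). The remaining libraries are wild type, the CTCF mutant (dCTCFΔCP alone) and the CTCF Pita mutant (dCTCFΔCP with PitaΔCP1), 2 of each. The sources used here do not say how the mutations were made, which sex the larvae had or whether libraries of a group come from separate RNA samples. P-values therefore measure the spread between libraries, which may be technical.

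CTCF, Su(Hw) and Pita are DNA-binding zinc-finger proteins of insulators and promoters in the fly. Each brings CP190, a shared partner protein without strong sequence preference of its own, to the places it binds, and the design text says that the mutations change the domains that contact CP190. Insulators limit which enhancers and promoters act on each other. Pita binds many promoters of broadly used genes and boundaries of the Hox gene cluster.

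The 4 libraries held 20318272 to 24116064 reads, of which 5693588 to 8220126 were assigned to genes. The libraries stand apart in ways that touch the results. The CTCF Su(Hw) libraries differed by little more than counting error (chi-square per degree of freedom 1.785, against 41.41 for the triple mutant), and 36 of 10585 genes lay more than 2-fold apart between them, against 704 between the triple libraries. Mitochondrially encoded RNA took 8.67% and 8.80% of assigned reads in CTCF Su(Hw) 1 and 2 but 11.7% and 18.1% in triple 1 and 2. Leaving out CTCF Su(Hw) 1 or 2, the other library then being assumed to vary like the other groups, cut the 2390 called genes given below to 751 or 641, and leaving out triple 2 cut them to 1477.

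The mutated genes were read first. The pita gene (FBgn0034878; dm6 2R, 23548967 to 23554712) stood at 20.5 and 17.1 CPM (counts per 1000000 reads of the TMM-scaled library) in CTCF Su(Hw) 1 and 2 and at 218 and 167 CPM in triple 1 and 2. The groups do not overlap, its mean in wild type was 27.8 CPM, and the log2 fold change was 3.35 (SE 0.24, adjusted p = 1.02e-05). The span of pita overlaps that of levy on the opposite strand. levy had 30294 reads over the 10 libraries, against 6711 for pita, and was not called (0.64, adjusted p = 0.0738). Dcp-1, a caspase gene, lies within the span of pita on the opposite strand, and unstranded counts do not separate reads of such overlapping genes. It was called higher (0.81, SE 0.22, adjusted p = 0.0236) and lost the call without triple 1 or either CTCF Su(Hw) library (adjusted p up to 0.283 over all alternatives). su(Hw), with means of 25.7, 21.2 and 23.8 CPM in wild type, the CTCF and the CTCF Pita mutant, stood at 480.1 and 497 CPM against 571 and 386 CPM and was not called (adjusted p = 0.932). CTCF rose from 11.1 and 11.01 to 26.5 and 18.1 CPM (1.03, SE 0.20, adjusted p = 0.00456), a call lost without CTCF Su(Hw) 1 or 2 and under library totals as scaling (adjusted p up to 0.0904). Cp190 was not called (49.1 and 50.6 against 46.8 and 15.1 CPM, adjusted p = 0.194), nor was the eye-pigment gene w (29.2 and 28.6 against 19.6 and 19.9 CPM, adjusted p = 0.0547). The w gene had means of 0.953, 0.271 and 2.97 CPM in wild type, the CTCF and the CTCF Pita mutant, so both groups compared had more w RNA than the other genotypes despite the shared strain label, which does not say whether they carry a functional copy.

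In all, 2390 of 10585 genes were called (22.6%) at an adjusted p under 0.05, 1284 higher (12.1%) and 1106 lower (10.4%) in the triple mutant. Of the called genes, 628 were more than 2-fold higher and 443 more than 2-fold lower, and 193 and 103 passed 4-fold. The libraries of the groups did not overlap for 7049 genes (66.6%). Scaling by library totals moved the median of all genes by -0.34 on the log2 scale and turned the split to 511 higher and 1536 lower. Called in the same direction under every alternative that gave a value, out of 19, were 553 genes (5.22%), 303 of them higher (2.86%) and 250 lower (2.36%).

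**Figure D1:**
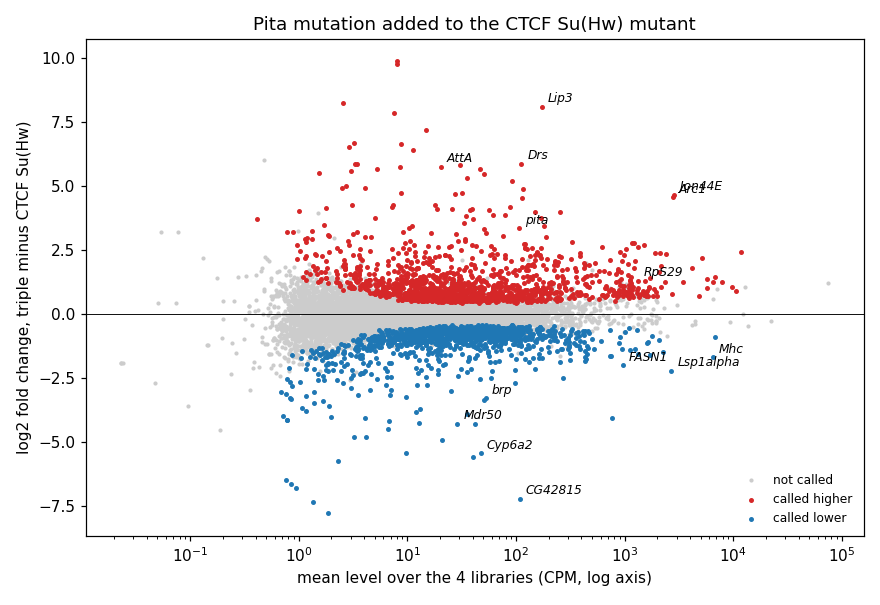
Log2 fold change of the triple mutant minus the CTCF Su(Hw) mutant against the mean level over the 4 libraries (CPM, log axis) for each of 10585 genes. Red points are the 1284 genes called higher, blue points the 1106 called lower and grey points the rest, and Lip3, Drs, Arc1 and Jon44E stand at the top among genes of high level.

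Lip3 rose from near the floor to a high level. It encodes a lipase of the acid lipase family that is known to be induced by starvation, and it stood at 1.21 and 1.24 CPM in CTCF Su(Hw) 1 and 2 and at 318 and 366 CPM in triple 1 and 2 (log2 fold change 8.11, SE 0.34, adjusted p = 6.67e-07). Its means in wild type, the CTCF mutant and the CTCF Pita mutant were 1.03, 1.75 and 0.496 CPM, so the triple libraries alone were high. Arc1 encodes a capsid-forming protein that is derived from a retrotransposon, carries RNA between cells at synapses and affects fat metabolism. It rose from 212 and 237 to 4989 and 5596 CPM (4.56, SE 0.22, adjusted p = 6.86e-07), where the other 3 genotypes had means of 748, 1175 and 786 CPM. For Arc1 the CTCF Su(Hw) libraries were the lowest and the triple libraries the highest of the 10.

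CG7763 and CG1468 were low in the CTCF Su(Hw) mutant alone. CG7763 rose from 2.32 and 2.30 to 59.8 and 62.5 CPM (4.72, SE 0.23, adjusted p = 6.86e-07), and its means were 35.3 CPM in wild type, 36.1 with the CTCF mutation alone and 46.8 in the CTCF Pita mutant. CG1468 rose from 4.63 and 4.12 to 76.4 and 73.4 CPM (4.09, SE 0.19), against 118, 111 and 76.4 CPM in these genotypes. Of the genes with no read in the CTCF Su(Hw) libraries, lncRNA:CR44316 had 221 reads in the triple mutant, at least 109-fold higher with 3 reads over the group in place of 0, and its means in the other genotypes were 14.1, 19.5 and 8.65 CPM. CG42834 had 174 reads, at least 86.0-fold higher, was otherwise read in the CTCF Pita mutant alone (31.3 CPM), and lost its call without CTCF Su(Hw) 1 or 2 (adjusted p up to 0.0741). lncRNA:CR45936 had 76 reads, at least 37.6-fold higher, and a mean of 0 CPM in each of the other genotypes. So CR44316 was absent from the counts of the CTCF Su(Hw) libraries alone, and CR45936 was read in the triple libraries alone.

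Several of the most lowered genes were high in the CTCF Su(Hw) mutant alone. brp (FBgn0259246; 2R, 9503765 to 9541565), which encodes the active zone protein Bruchpilot, fell from 90.5 and 101 CPM in CTCF Su(Hw) 1 and 2 to 9.52 and 10.0 CPM in triple 1 and 2 (-3.29, SE 0.21, adjusted p = 3.4e-06). Its neighbour Wnt2 (FBgn0004360; 2R, 9494166 to 9503188), a gene for a secreted Wnt ligand that ends 576 bp before brp starts, fell from 20.5 and 24.6 to 1.28 and 2.01 CPM (-3.84, SE 0.28, adjusted p = 9.42e-06). Means of brp in wild type, the CTCF mutant and the CTCF Pita mutant were 7.20, 6.40 and 8.74 CPM, and those of Wnt2 were 1.59, 2.15 and 2.82 CPM. For both neighbours the triple libraries were at the level of these 3 genotypes and the CTCF Su(Hw) libraries stood apart.

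The same order of levels was seen for nAChRalpha7 on the X, a subunit gene of the nicotinic acetylcholine receptor (22.99 and 25.1 against 1.71 and 2.01 CPM, -3.71, SE 0.29). It was also seen for CG12506 (78.4 and 79.6 against 1.39 and 2.01 CPM, -5.59, SE 0.27). Mal-A7, a maltase gene, fell from 25.8 and 26.8 to 2.78 and 5.43 CPM (-2.77, SE 0.27) and remained above its means of 0.398, 0.831 and 1.01 CPM in wild type, the CTCF and the CTCF Pita mutant. The growth factor gene miple2 fell by 3.37 on the log2 scale and ncm, a gene of mRNA splicing, by 2.49. The span of miple2 overlaps that of CG32845, which was lower as well, so its reads cannot be assigned with certainty.

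A second set of lowered genes was low in both genotypes with PitaΔCP1, and of these CG42815 and GstE5 were about as low in wild type. Cyp6a2, a detoxifying P450 gene, fell from 91.2 and 93.8 to 2.78 and 1.00 CPM (-5.45, SE 0.50, adjusted p = 5.52e-05). Mdr50, a drug transporter gene, fell from 54.8 and 54.3 to 2.25 and 3.62 CPM (-4.28, SE 0.34, adjusted p = 2.05e-05). The means of Cyp6a2 and Mdr50 in the CTCF Pita mutant were 1.03 and 3.09 CPM, against 32.5 and 32.9 CPM in the CTCF mutant. In wild type they were 6.89 CPM (11.3 and 2.51 CPM in the libraries) and 39.8 CPM. CG42815 fell from 217 and 212 to 2.03 and 0.402 CPM (-7.22, SE 0.42), and by 5.22 on the CTCF background, where its means were 6.83 CPM in the CTCF and 0.158 CPM in the CTCF Pita mutant. Its mean in wild type was 0.562 CPM, so the CTCF Su(Hw) libraries stood apart for this gene. krimp, a gene of the piRNA pathway, which silences transposons in the germline, fell from 7.23 and 9.00 to 1.28 and 0.603 CPM (-2.96, SE 0.39). Its mean was 1.03 CPM in the CTCF Pita mutant, 4.28 CPM in the CTCF mutant and 9.06 CPM in wild type. GstE5, a glutathione S-transferase gene, fell from 7.79 and 8.43 to 0.428 and 0 CPM (-4.80, SE 0.53), and its means in the CTCF Pita mutant and wild type were 0.709 and 0.640 CPM.

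**Figure D2:**
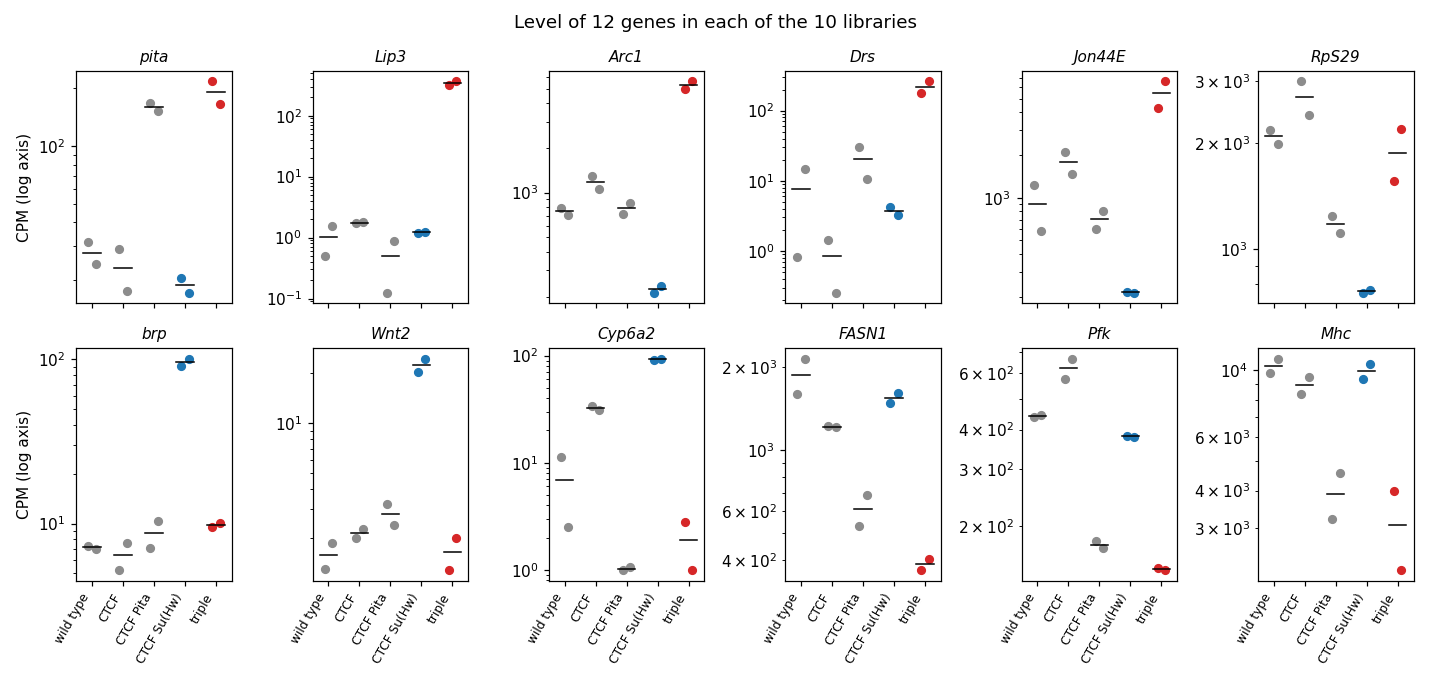
Level of 12 genes in each library (CPM, log axis), with a point per library, a line at the mean of the 2 libraries and the triple mutant in red beside the CTCF Su(Hw) mutant in blue. brp and Wnt2 are high in the CTCF Su(Hw) libraries alone, Lip3 and Arc1 are highest in the triple libraries, and Cyp6a2 and Pfk are low in both genotypes with the Pita mutation.

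Immune peptide genes rose. Insects answer bacteria and fungi with secreted peptides from the fat body and gut. The Imd pathway, set off by peptidoglycan of the kind found in Gram-negative bacteria, drives diptericins, attacins, cecropins and drosocin, and the Toll pathway drives drosomycin and the bomanins. Of 35 such genes in the files 27 passed the filter on low counts, which genes high in the triple mutant could pass through that group, and 24 of these were called higher and 0 lower (median log2 fold change 3.89, against 0.00 over all genes). Their summed level was 193 and 209 CPM in CTCF Su(Hw) 1 and 2 and 1175 and 3040.4 CPM in triple 1 and 2, and 75.3 to 544 CPM in the other 6 libraries. Grouped by pathway after their values were seen, 10 of 11 Imd-type and 12 of 14 Toll-type genes were called. The share called higher over all genes was 12.1%.

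Drs, the antifungal peptide drosomycin, rose from 4.17 and 3.26 to 177 and 261 CPM (5.87, SE 0.76, adjusted p = 0.000472). Its level also differed between libraries of other genotypes. It was 0.817 and 14.6 CPM in wild type 1 and 2, 1.45 and 0.253 CPM in CTCF 1 and 2, and 29.9 and 10.6 CPM in CTCF Pita 1 and 2. AttA, an attacin, rose from 0.463 and 0.958 to 23.2 and 56.7 CPM (5.76, SE 0.56, adjusted p = 8.49e-05). Its neighbour Dro, drosocin, which ends 647 bp before AttA starts, rose from 4.45 and 5.17 to 54.6 and 305 CPM (5.21, SE 0.86), and triple 2 lay far above triple 1. Wild type 1 and 2 differed in Dro as well, at 1.31 and 14.4 CPM. The cecropin CecA1 rose from 0 and 0.479 to 10.3 and 34.0 CPM (6.41, SE 1.10), and CecB had 86 reads where the CTCF Su(Hw) mutant had 2, a ratio of 63.8 (exact 95% interval from 17.1 to 535). Daisho Dso1, a Toll-dependent antifungal peptide, rose from 1.85 and 2.59 to 116 and 82.0 CPM (5.48, SE 0.43). The bomanin BomBc1 had 66 and 3 reads in the triple and CTCF Su(Hw) mutant, a ratio of 32.6 (from 10.7 to 162). Neighbouring attacin and cecropin genes are near copies. Reads mapping to several places were not counted, so reads shared by such copies may be missing from these values. edin, a peptide gene known to rise in infection that was not on the list, rose from 1.39 and 2.11 to 14.7 and 169 CPM (5.68, SE 0.99).

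Peptidoglycan receptors and stress peptides rose in part, beside 12.1% of all genes called higher and 10.4% lower. Among peptidoglycan recognition proteins, which sense or degrade bacterial wall, 4 of 11 tested were called higher and 1 lower (median 0.46), and 2 and 0 without either CTCF Su(Hw) library. PGRP-SC1a, an amidase gene with a near copy in PGRP-SC1b, rose from 67.7 and 81.0 to 241 and 318 CPM (1.91, SE 0.24, adjusted p = 0.000373). PGRP-SD, a sensor gene, rose from 3.52 and 3.54 to 8.88 and 23.5 CPM (2.13, SE 0.38). PGRP-SB1 rose from 5.10 and 4.88 to 17.4 and 104 CPM, a call lost without CTCF Su(Hw) 1 or 2 (adjusted p up to 0.0625). Of 8 Turandot genes, secreted stress proteins of the JAK-STAT and MAP kinase response, 3 were tested and called higher, TotA and TotC under every alternative. TotE passed the filter on low counts through the triple mutant alone and had no adjusted p by DESeq2. TotA rose from 46.9 and 46.7 to 266 and 179.9 CPM (2.25, SE 0.19, adjusted p = 3.23e-05) and TotC from 1.30 and 1.34 to 5.89 and 6.23 CPM (2.18, SE 0.35), and TotE went from 1 read to 89, a ratio of 132 (from 23.1 to 5271).

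Gut serine proteases, the trypsins and Jonah proteases that digest food protein, rose as well, beside 12.1% of all genes called higher and 10.4% lower. Of 26 tested, 18 were called higher and 2 lower (median 1.48), and 9 and 1 without either CTCF Su(Hw) library, and 11 and 2 without triple 2. Jon44E rose from 217 and 214 to 4285 and 6611 CPM (4.66, SE 0.40, adjusted p = 3.24e-05), and its means were 907, 1785 and 707 CPM in wild type, the CTCF mutant and the CTCF Pita mutant. thetaTry rose from 23.5 and 23.2 to 229 and 406 CPM (3.76, SE 0.42), Jon65Aii from 292 and 299.8 to 1468 and 2623 CPM (2.79, SE 0.39) and Jon74E from 163 and 185 to 676 and 1475 CPM (2.63, SE 0.43). In each of these 4 genes triple 2 was above triple 1 and the groups did not overlap, which held for 66.6% of all genes.

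Carbohydrate-digesting genes split. Of 13 maltase and amylase genes 3 were called higher and 3 lower (median -0.21). Mal-A3 rose from 33.0 and 30.3 to 201 and 217 CPM (2.72, SE 0.41), whereas Mal-A7, 10753 bp away, fell as given above and Amyrel, an amylase-like gene, fell from 20.3 and 18.5 to 4.92 and 3.82 CPM (-2.11, SE 0.29). Peptide hormone genes rose in 8 of 23 tested and fell in 0 (median 0.78), and 5 rose without either CTCF Su(Hw) library. Among them were peptides of enteroendocrine cells and neurons: AstA, allatostatin A, rose from 5.65 and 6.89 to 25.3 and 24.7 CPM (1.99, SE 0.17, adjusted p = 3.43e-05), Mip from 5.01 and 5.27 to 14.9 and 15.7 CPM (1.57, SE 0.20) and the tachykinin gene Tk from 4.36 and 4.60 to 12.1 and 11.1 CPM (1.37, SE 0.26), the last call being lost without CTCF Su(Hw) 1 (adjusted p = 0.0538). Ilp3, an insulin-like peptide gene of brain and gut, rose from 1.02 and 0.766 to 7.81 and 6.83 CPM (3.02, SE 0.41).

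Glycolysis and fatty acid synthesis genes fell. Over all genes 10.4% were called lower, and the libraries of the groups did not overlap for 66.6%. Of 15 glycolysis genes 11 were called lower and 0 higher (median -0.81), all 15 had libraries that did not overlap, and 3 were called without either CTCF Su(Hw) library. Pfk, the phosphofructokinase gene that sets the pace of glycolysis, fell from 382 and 380.4 to 147 and 145 CPM (-1.38, SE 0.16, adjusted p = 0.000243). Gpo1, the mitochondrial glycerophosphate oxidase gene, fell from 246 and 249 to 67.6 and 82.8 CPM (-1.72, SE 0.17) and the aldolase gene Ald1 from 2197 and 2232 to 1098 and 921 CPM (-1.13, SE 0.20). Of 12 fatty acid synthesis genes 7 were called lower and 0 higher (median -0.52), and 5 of them without either CTCF Su(Hw) library.

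FASN1, fatty acid synthase, fell from 1480.3 and 1605 to 367 and 403 CPM (-2.003, SE 0.21, adjusted p = 0.000145). ACC, whose enzyme makes malonyl-CoA for it, fell from 392 and 407 to 115 and 104 CPM (-1.86, SE 0.21), AcCoAS, which makes acetyl-CoA, by 1.46 and Men, malic enzyme, which supplies NADPH, by 1.24 on the log2 scale. Of 14 genes of fat mobilization and oxidation, 5 were called higher and 1 lower (median 0.31, which was -0.05 under library totals), with 3 or 2 higher and 0 lower without a CTCF Su(Hw) library. Beside Lip3, the risen genes included the lipase gene Lip4 (31.1 and 27.1 against 66.6 and 76.6 CPM, 1.30, SE 0.15). Of all genes, 12.1% were called higher.

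Fat body secretory genes were lower or not called, beside 10.4% of all genes called lower. Lsp1alpha, a storage protein of the blood that feeds metamorphosis, fell from 4397 and 4472 to 719 and 1199.7 CPM (-2.21, SE 0.26, adjusted p = 0.000272). apolpp, the main lipid carrier, fell from 8541 and 9142 to 4716 and 4685 CPM (-0.91, SE 0.20), and lost its call without CTCF Su(Hw) 1 or 2 (adjusted p up to 0.0997). The yolk protein gene Yp3 fell from 10.5 and 11.5 to 2.57 and 3.42 CPM (-1.91, SE 0.45), a call lost without triple 1 or either CTCF Su(Hw) library (adjusted p up to 0.0812). In all 3 of 11 tested were called lower and 0 higher (median -0.28), and 1 lower without either CTCF Su(Hw) library. In whole larvae, fewer cells of a type and less RNA per cell cannot be told apart.

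Muscle genes fell in 6 of 23 tested and rose in 0 (median -0.34), and 3 fell without either CTCF Su(Hw) library. Mhc, muscle myosin, fell from 9354 and 10508 to 3981 and 2184 CPM (-1.69, SE 0.30, adjusted p = 0.00283). bt, the titin-like projectin, fell from 3160.2 and 3517.5 to 1484 and 916 CPM (-1.48, SE 0.24) and Strn-Mlck, a kinase of the sarcomere, from 115 and 132 to 58.0 and 36.0 CPM (-1.38, SE 0.21). In these 3 genes triple 2 was the lowest of the 4 libraries. The share called lower over all genes was 10.4%.

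Neuronal and synaptic genes fell in 12 of 33 tested and rose in 0 (median -0.64), in 6 or 2 without CTCF Su(Hw) 1 or 2 in 6 without triple 2 and in 7 by DESeq2. Besides brp, the RNA-binding protein genes bru3 (15.8 and 16.7 against 8.35 and 7.24 CPM, -1.04, SE 0.19) and fne (12.9 and 13.3 against 6.96 and 4.42 CPM, -1.15, SE 0.30) fell, fne with a call lost without either CTCF Su(Hw) library or triple 2 (adjusted p up to 0.109). The mean level of the list, as log2(CPM + 0.5), was 3.74 and 3.86 in CTCF Su(Hw) 1 and 2 and 3.29 and 3.12 in triple 1 and 2, whereas wild type had 2.85 and 3.07, the CTCF mutant 2.81 and 2.93 and the CTCF Pita mutant 3.68 and 3.81. On the CTCF background 19 of its members were higher and 0 lower with the Pita mutation, and the difference was called in 24. In the first comparison 22.6% of all genes were called, 12.1% higher and 10.4% lower. Testis genes were called in 4 of 42 tested, 1 higher and 3 lower (median -0.35), but 13 were lower without triple 1 and 0 without triple 2 or either CTCF Su(Hw) library. S-Lap1, a sperm leucyl aminopeptidase gene, had 24.8 and 25.0 against 13.4 and 8.44 CPM. The roX RNAs of male dosage compensation were lncRNA:roX2, which rose from 1.85 and 2.78 to 9.20 and 24.5 CPM (2.79, SE 0.45), and lncRNA:roX1, at 207 and 247 against 258 and 926 CPM, whose call (adjusted p = 0.0419) was lost in 13 of 19 alternatives. The part of the sex of the larvae in these values was not tested.

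Blood cell genes went both ways, with 8 of 20 called lower and 3 higher (median -0.53), and 6 or 5 lower and 1 higher without a CTCF Su(Hw) library. Col4a1, a collagen of basement membranes made by hemocytes and fat body, fell from 1069 and 1194 to 382 and 348 CPM (-1.63, SE 0.20, adjusted p = 0.000354), and the scavenger receptor gene Sr-CIV fell from 2.69 and 3.54 to 0.321 and 0.201 CPM. NimC1, a phagocytosis receptor of plasmatocytes, rose from 6.95 and 5.94 to 22.4 and 27.5 CPM (1.94, SE 0.18, adjusted p = 6.89e-05). Heat shock genes fell in 5 of 15 tested and rose in 0 (median -0.57), and 3 fell without CTCF Su(Hw) 1. The called ones included the chaperone genes Hsp70Bb (42.8 and 58.2 against 12.8 and 9.45 CPM, -2.15, SE 0.32), Hsp70Bc (31.2 and 30.1 against 8.99 and 8.04 CPM, -1.83, SE 0.32) and Hsp70Ab (38.7 and 35.5 against 12.5 and 11.5 CPM, -1.62, SE 0.28). These copies are near-identical, and reads mapping to several places were not counted, so reads that they share may be missing. Means of these 3 genes in wild type, the CTCF and the CTCF Pita mutant were 0 to 0.994 CPM, so the triple libraries remained above those genotypes. Shares called over all genes were 12.1% higher and 10.4% lower.

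Cytosolic ribosomal protein genes rose in 65 of 84 tested and fell in 0 (median 0.79), with 30 under library totals, 21 without triple 2, and 2 without either CTCF Su(Hw) library. RpS29 rose from 753 and 769 to 1567 and 2202 CPM (1.31, SE 0.22, adjusted p = 0.00198) and RpL5 from 1438 and 1350.1 to 2905 and 3729 CPM (1.25, SE 0.21), both under every alternative. RpL36 rose from 519 and 519 to 945 and 1578 CPM (1.28, SE 0.26), a call lost without CTCF Su(Hw) 1 or 2 (adjusted p up to 0.0749). The mean level of the list was 9.03 and 9.03 log2(CPM + 0.5) in the CTCF Su(Hw) libraries, 9.49 and 10.06 in triple 1 and 2, and 10.15 and 10.01 in wild type. In this list too triple 2 lay above triple 1. The share called higher over all genes was 12.1%.

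Mitochondrial genes followed triple 2. Only 5.06% of nuclear oxidative phosphorylation and 14.3% of mitochondrial ribosomal protein genes were called, under the 22.6% of all genes (12.1% higher). Of 12 tested mitochondrially encoded protein genes 5 were called higher (median 1.14), 11 without triple 1 and 0 without triple 2 or either CTCF Su(Hw) library. mt:Cyt-b, cytochrome b, stood at 3264 and 3138 CPM against 4990.0 and 11619 CPM, and mt:ND2 at 7.14 and 9.19 against 17.9 and 62.1 CPM. Nuclear oxidative phosphorylation genes were called in 4 of 79 (all higher, median 0.23, -0.15 under library totals), in 37 without triple 1, and in 2, both lower, without triple 2. ND-B14.5A of complex I had 43.7 and 41.2 against 68.9 and 118 CPM, and mitochondrial ribosomal protein genes were called higher in 9 and lower in 1 of 70, with 21 and 0 without triple 1.

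**Figure D3:**
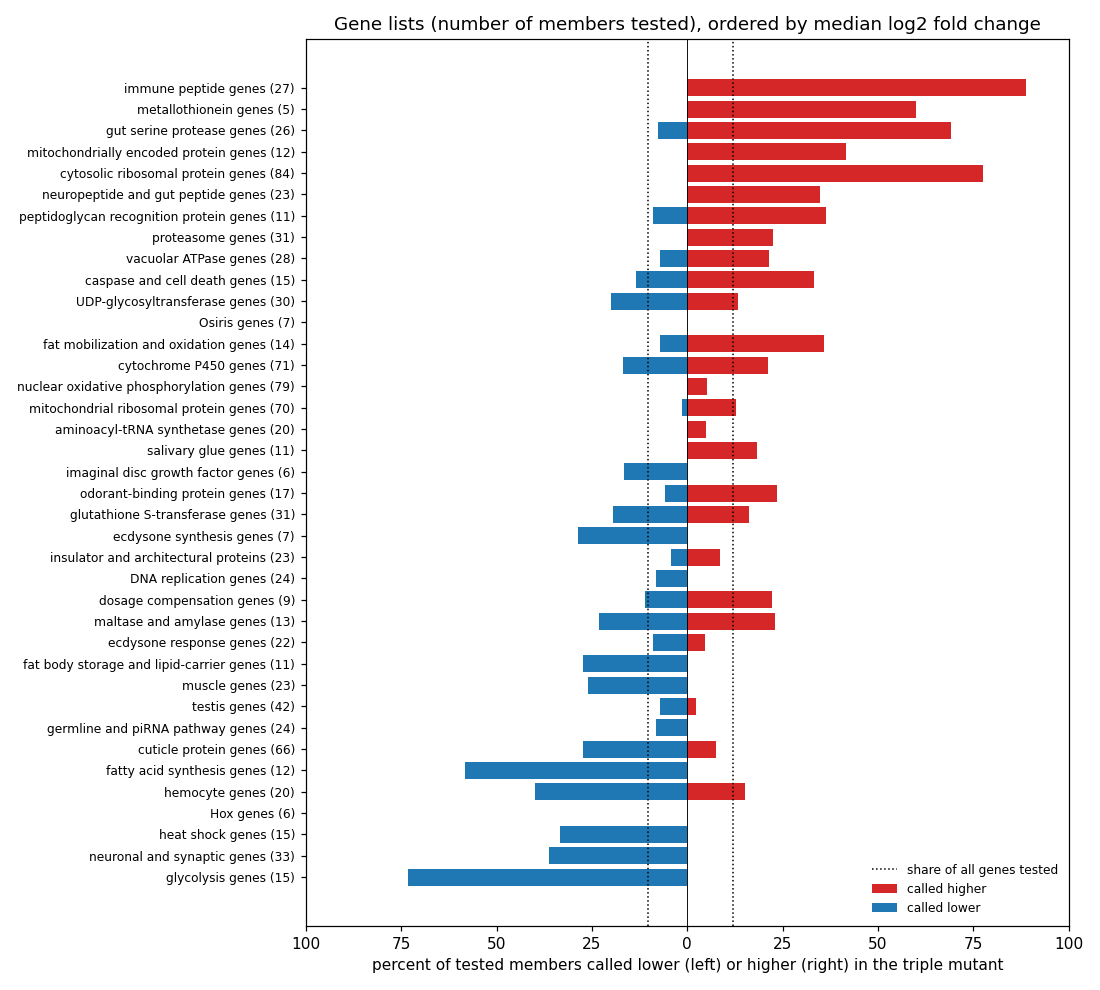
Share of the tested members of each gene list called higher (red, right) or lower (blue, left) in the triple mutant, for the 38 lists with at least 5 tested members (number in parentheses), ordered by median log2 fold change. Dotted lines mark the shares over all genes, 12.1% higher and 10.4% lower, and immune peptides, gut proteases and ribosomal proteins extend furthest to the right and glycolysis genes furthest to the left.

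Detoxification and cuticle genes changed in both directions, beside 12.1% of all genes called higher and 10.4% lower. P450 genes were called higher in 15 and lower in 12 of 71 (median 0.25, -0.09 under library totals), with 5 and 6 or 4 and 7 without a CTCF Su(Hw) library. Next to Cyp6a2, the lowered ones included Cyp6a23 (252 and 239 against 52.2 and 57.3 CPM, -2.17, SE 0.21) and, 4463 bp from it, Cyp6a20 (5.56 and 4.69 against 0.963 and 0.804 CPM, -2.48, SE 0.37). Cyp6d2 rose from 6.95 and 7.95 to 38.3 and 36.4 CPM (2.33, SE 0.21, adjusted p = 5.8e-05), and the glutathione S-transferase gene GstD8 from 2.69 and 3.64 to 17.7 and 15.1 CPM (2.38, SE 0.33). Of 66 cuticle protein genes 18 were called lower and 5 higher (median -0.44), with 11 and 1 or 9 and 1 without a CTCF Su(Hw) library. Ccp84Ab fell from 9.83 and 10.1 to 1.71 and 3.22 CPM (-2.11, SE 0.26) and Cpr49Ae rose from 2.04 and 2.97 to 9.10 and 12.3 CPM (2.06, SE 0.26).

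Stage-dependent genes were called in 18.2% (salivary glue) and 13.6% (ecdysone response) of those tested, beside 22.6% of all genes. Salivary glue genes, which late larvae express, were called higher in 2 of 11 tested (median 0.17, -0.21 under library totals), and their mean level was 6.80 and 6.83 log2(CPM + 0.5) in CTCF Su(Hw) 1 and 2, within the 6.56 and 7.68 of triple 1 and 2. Sgs5 had 29.3 and 30.1 against 150.3 and 798 CPM, with a call lost without triple 2 or either CTCF Su(Hw) library (adjusted p up to 0.109), and the list gave 0 calls without either of the latter. Ecdysone response genes were called in 3 of 22, 1 higher and 2 lower (median -0.26). The nuclear receptor gene ftz-f1, which acts after an ecdysone pulse, fell from 18.4 and 18.2 to 8.88 and 7.03 CPM (-1.18, SE 0.17, adjusted p = 0.00107), and ImpL2, whose product binds insulin-like peptides, rose from 71.0 and 66.6 to 126 and 152 CPM (1.01, SE 0.15). Among cell death genes, 5 of 15 were called higher and 2 lower (median 0.32, -0.03 under library totals), and 1 and 1 without either CTCF Su(Hw) library. The caspase gene Damm rose from 19.0 and 20.7 to 102 and 99.5 CPM (2.34, SE 0.28) and egr, the TNF ligand eiger, fell from 33.9 and 36.6 to 16.6 and 11.5 CPM (-1.30, SE 0.21).

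**Figure D4:**
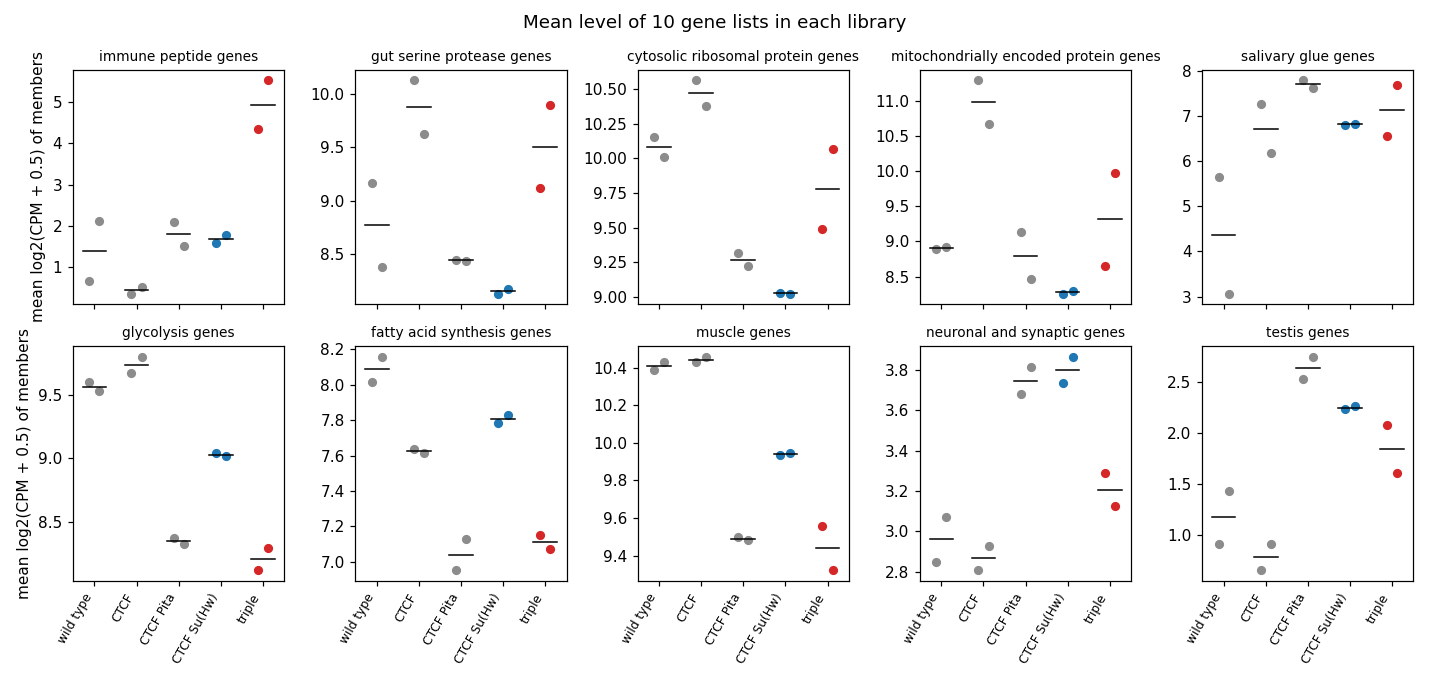
Mean level of the tested members of 10 gene lists, as log2(CPM + 0.5), in each library, with a point per library, a line at the group mean, the CTCF Su(Hw) mutant in blue and the triple mutant in red. The CTCF Su(Hw) libraries lie almost on each other, and triple 2 lies above triple 1 in immune, protease, ribosomal, mitochondrial and glue genes.

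Hox genes, which give body segments their identity, gave 0 calls by edgeR's quasi-likelihood test among 6 tested of 8, against 22.6% of all genes, and 0 by DESeq2. At an unadjusted p under 0.05, 3 were lower, and under library totals 3 were called lower. Ubx stood at 9.55 and 9.38 against 6.96 and 4.82 CPM (adjusted p = 0.0699), Antp at 18.6 and 23.7 against 14.7 and 13.5 CPM (0.0789) and abd-A at 26.6 and 28.2 against 20.4 and 18.7 CPM (0.0629). In each of these genes both triple libraries lay under both CTCF Su(Hw) libraries without passing the test. Over all genes the libraries of the groups did not overlap for 66.6%. Among insulator and architectural protein genes 3 of 23 were called, pita and CTCF among them.

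By position, called genes were spread over the genome. They made up 25.0% of tested genes on 2R, which carries pita, and 20.8% to 22.8% on the X, 2L, 3L and 3R. Within 0.5 Mb of pita 30 of 152 tested genes were called, pita itself left out (19.7%), 17 higher and 13 lower. At more than 5 Mb on the same arm the share was 27.0% of 1411 genes. On chromosome 4, 17 of 77 genes were called (22.1%), 14 of them lower.

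The same mutation was also added to larvae with intact Su(Hw), as the CTCF Pita mutant against the CTCF mutant, a comparison that shares no library with the first. It called 4664 genes (44.1%), 2268 higher and 2396 lower, and 7324 under library totals. Called in both were 1276 genes, which is 53.4% of the first list and 27.4% of the second, and 446 of these had the same direction and 830 the opposite one. The test of the difference between the backgrounds called 4800 genes (45.3%). Among the 2390 genes called in the first comparison it called 1642 (68.7%), among them each of the 830 with opposite directions. The CTCF mutant libraries, which enter the second comparison, held 34.6% and 24.2% mitochondrially encoded reads.

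Several gene groups differed between the backgrounds. Cytosolic ribosomal protein genes were lower in 79 and higher in 0 of 84 on the CTCF background (median -1.23), and the difference was called in 80. Gut serine proteases were lower in 20 of 26 there (median -1.39, difference called in 23), against 18 higher and 2 lower in the first comparison. Nuclear oxidative phosphorylation genes, few of which were called in the first comparison (4 of 79), were lower in 64 on the CTCF background (median -1.60, difference called higher in 62). Testis genes, called in 4 of 42 in the first, were higher in 30 (median 2.51, difference called in 30). Among single genes picked for the size of the difference, CG11300 had a log2 fold change of 2.37 on the CTCF Su(Hw) and -5.75 on the CTCF background. fiz, a gene linked to larval growth, rose by 0.92, a call lost under library totals (adjusted p = 0.0636), and fell by 2.21.

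Other groups had the same direction on both backgrounds. Glycolysis genes were lower in 14 and higher in 1 of 15 on the CTCF background too (median -1.56), with the difference called in 7. Fatty acid synthesis genes were lower in 8 and higher in 1 of 12 (median -0.70, difference called in 4), and Turandot genes higher in 2 of 3 (median 1.43, difference called in 0). Pfk fell by 1.83 there, with a difference that was not called (0.45, adjusted p = 0.115), and Cyp6a2 by 4.95 (difference -0.49, adjusted p = 0.665). Immune peptide genes were higher in 7 of 27 (median 2.06), and the difference between backgrounds was called in 2 of 27. Over all genes 21.4% were called higher and 22.6% lower on the CTCF background. The SE of the difference was wide in some immune genes (2.07 for Drs, 3.49 for CecA1), so an uncalled difference does not show an equal effect. The pita gene itself rose by 2.79 there, against 3.35, a difference that was not called (0.56, adjusted p = 0.188).

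**Figure D5:**
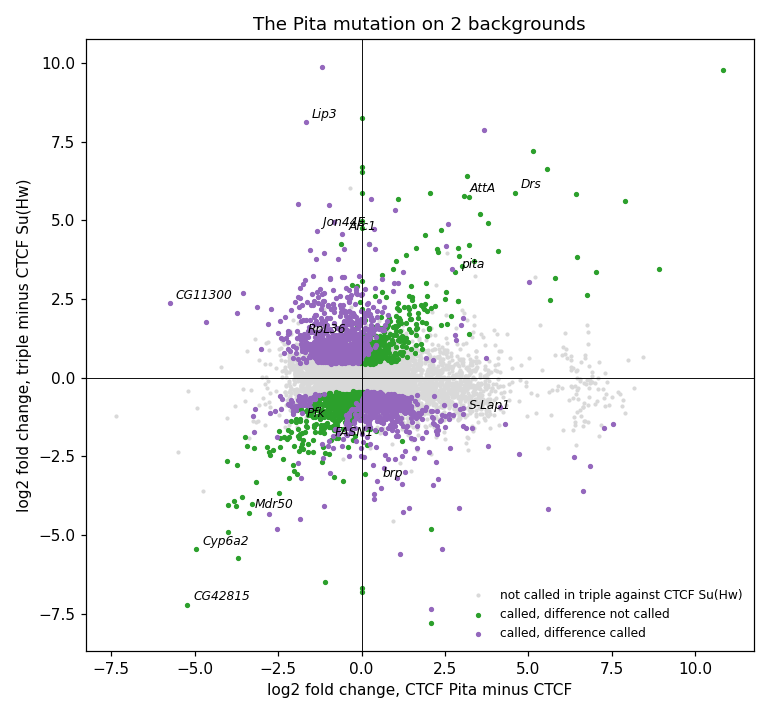
Log2 fold change of the triple minus the CTCF Su(Hw) mutant against that of the CTCF Pita minus the CTCF mutant, a point per gene. Of the 2390 genes called in the first comparison, the 1642 whose Pita effect differs between backgrounds are purple and the rest green, and pita, Drs and AttA lie at the upper right, Cyp6a2, Mdr50 and CG42815 at the lower left and Lip3 and CG11300 at the upper left.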

How the data were processed

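The authors deposited a table of raw counts per gene for each library, in the layout of STAR gene counts. Per the submitters' processing notes, cutadapt and STAR were used with dm6, and their versions, the annotation release and the read filters were not given in the sources used here. Per the labels' protocols, RNA from 100 mg of larvae was oligo(dT)-selected (50 ng of total RNA), made into NEBNext Ultra libraries with 12 PCR cycles and sequenced in pairs. The unstranded counts were used, since 50.1% to 50.3% of stranded assignments were forward, so overlapping genes are not separated. Of 96 genes described in the text, 34 overlap another gene. Reads mapping to several places (50.9% to 65.5%) were not counted. Lines that name no gene were left out, and of all reads 0.579% to 1.01% fell in no gene and 3.68% to 4.43% were ambiguous.

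Names and coordinates came from the Ensembl annotation of BDGP6 (dm6 coordinates), which named 17597 of 17735 identifiers. filterByExpr kept 10585 genes. Scaling used TMM factors, and edgeR 4.0.16 (R 4.3.3) fitted 1 quasi-likelihood model to all 10 libraries, with Benjamini-Hochberg adjustment over all genes, two-sided, called at 0.05. SE is the log2 fold change over the root of F. An exact permutation test of 2 against 2 libraries cannot go below p = 0.333, so all tests rest on the variance model (5 residual degrees of freedom, biological coefficient of variation 15.9%). 1 read is 0.0927 to 0.289 CPM, and 0 reads allow up to 3. Intervals cover counting error only. The steps were tested on simulated data in which all groups had the same spread. The libraries here do not share such a spread, so that run does not bear on the effect of unequal spread.

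Members and the 39 gene lists were chosen with earlier results of these data known. Named genes are, among called genes with groups that do not overlap and at least 5 CPM, the 12 largest changes in each direction with a proper name and the 3 largest of any name. Without these limits, up to 4 called genes per list and the 8 called genes with the smallest p of the difference between backgrounds were added, and fixed checks. edin, found among the 12 largest rises, is on no list. Promoter sequences were not analysed here. Alternatives were RLE factors, library totals, no filter, DESeq2 1.42.0, the 4 libraries alone, a replicate block, no mitochondrially encoded genes, summed CTCF Su(Hw) libraries, a glue-gene covariate and each library left out.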

Additional observations from a re-analysis of the deposited data

Results flagged for a closer look

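The results here share a single reason for a closer look: the effect of PitaΔCP1 on the CTCF Su(Hw) background differed from that on the CTCF background by the test of the difference itself. That test called 4800 genes. For each gene the value given is the log2 fold change on the CTCF Su(Hw) background minus that on the CTCF background, so a positive value marks a higher effect in the presence of Su(Hw)Δ114. The CTCF libraries, which enter it, had the largest mitochondrially encoded shares of the 10 libraries, and the part of that share in these values was not tested.

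Among risen genes the difference was 9.78 for Lip3, 5.14 for Arc1, 4.34 for CG7763, 4.63 for CG1468, 8.12 for CG11300 and 3.13 for fiz. It was 11.06 for lncRNA:CR44316, a fitted value that depends on the prior count because the CTCF Su(Hw) libraries held no read of it. Lowered genes gave -6.75 for CG12506, -4.21 for Wnt2, -3.74 for brp, -4.09 for nAChRalpha7, -4.57 for miple2, -3.72 for ncm, -3.10 for Mal-A7 and -2.25 for GstE5. Of the genes checked for the genotype, Cp190 had -1.72 and w had -3.90. For brp and Wnt2 the effect on the CTCF background, 0.45 and 0.37, was not called.

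Digestive and endocrine genes had mostly positive differences, of 6.00 for Jon44E, 5.14 for thetaTry, 3.18 for Jon65Aii, 2.64 for Jon74E, 4.06 for Mal-A3, 1.21 for AstA, 1.26 for Mip, 1.41 for Tk and 2.03 for Ilp3, and of -2.38 for Amyrel. Immune genes gave 6.46 for Dso1 and 1.66 for PGRP-SD. PGRP-SC1a, at -1.12, rose on both backgrounds and by more on the CTCF one (3.03 against 1.91).

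Ribosomal and mitochondrial genes were higher on the CTCF Su(Hw) and lower on the CTCF background, with differences of 2.51 for RpS29, 2.21 for RpL5, 3.07 for RpL36, 5.38 for mt:ND2, 3.57 for mt:Cyt-b and 3.34 for ND-B14.5A. Neuronal and testis genes went the other way, at -3.78 for fne, -2.84 for bru3 and -4.18 for S-Lap1, and lncRNA:roX2 gave 3.64.

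Fat and sarcomere genes gave -1.01 for FASN1, -0.9996 for ACC, -1.11 for bt and -1.59 for Strn-Mlck. FASN1 and ACC fell on both backgrounds. Blood cell genes gave -0.82 for Col4a1, 2.10 for NimC1 and -5.55 for Sr-CIV. Detoxification and cuticle genes gave -2.48 for Cyp6a20, -1.17 for Cyp6a23, 3.18 for Cyp6d2, -0.92 for Ccp84Ab and 2.33 for Cpr49Ae. Cell death and stage genes gave 3.20 for Damm, -0.85 for egr and -1.55 for ftz-f1. Among Hox genes the difference was -0.91 for Antp, -1.25 for Ubx and -0.83 for abd-A, while neither effect alone was called.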

How the results depend on the processing

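The 2390 calls of the first comparison numbered 2387 with RLE factors, 2636 with no filter, 2399 without mitochondrially encoded genes, 2448 with a glue-gene covariate, 1828 by DESeq2 and 1787 in the 4 libraries alone. Library totals gave 2047 (511 higher, 1536 lower, against 1284 and 1106) and raised the calls of Pita on the CTCF background from 4664 to 7324. With the CTCF Su(Hw) libraries summed to 1 sample there were 778 calls, 119 in gene lists (335 in the main result) and 198 on 2R (530). Leaving out each library in turn gave 641 to 3172 calls, 105 to 435 in lists, 170 to 649 on 2R, 3103 to 5139 on the CTCF background (lowest without CTCF 1) and 3469 to 5203 for the difference. The lowest counts of the first comparison came without CTCF Su(Hw) 1 or 2, and the highest without triple 1. Of 90 called genes described, 74 kept the call and direction in all alternatives that gave a value. su(Hw), not called, had log2 fold changes of -0.34 to 0.23 and changed sign without triple 2. Same-numbered libraries did not deviate together (r -0.149 to 0.153 over 10 pairs), and the replicate block gave 2143 calls (1145 higher, 998 lower). Depth limits genes of few reads, most in triple 2. The promoter description was not run.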

Other observations

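Other gene groups were measured beside a share of calls of 22.6% over all genes. Aminoacyl-tRNA synthetase genes, which charge tRNAs for translation, were called higher in 1 of 20 (median 0.21), and DNA replication genes lower in 2 of 24 (median -0.04). Osiris genes, expressed in chitin-secreting cells, gave 0 calls among 7 by edgeR, with 0 at an unadjusted p under 0.05 and 0 by DESeq2. Proteasome genes were called higher in 7 of 31 (median 0.38, 0.00 under library totals), in 0 without either CTCF Su(Hw) library and in 19 without triple 1. Vacuolar ATPase genes, which acidify gut and organelles, were called higher in 6 and lower in 2 of 28, and in 0 and 1 without either CTCF Su(Hw) library. Metallothionein genes, which bind copper and other metals, were called higher in 3 of 5 (median 1.88), and in 1 without triple 1 or without CTCF Su(Hw) 2. Their mean level was 2.91 and 2.78 log2(CPM + 0.5) in CTCF Su(Hw) 1 and 2, 4.50 and 3.50 in triple 1 and 2 and 4.48 to 5.85 in the other 6 libraries.

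Of the other lists, UDP-glycosyltransferase genes were called higher in 4 and lower in 6 of 30, glutathione S-transferase genes in 5 and 6 of 31, odorant-binding protein genes in 4 and 1 of 17, dosage compensation genes in 2 and 1 of 9, ecdysone synthesis genes in 0 and 2 of 7, imaginal disc growth factor genes in 0 and 1 of 6, and germline and piRNA genes in 0 and 2 of 24. Without CTCF Su(Hw) 1 or 2 the UDP-glycosyltransferase counts were 1 and 0, the glutathione S-transferase counts 2 and 3 or 1 and 3, the odorant-binding protein counts 2 and 0, the dosage compensation counts 1 and 0 and the germline and piRNA counts 0 and 1. Ecdysone synthesis and imaginal disc growth factor genes gave 0 calls then.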
